A study of Mus musculus with 10 samples.

Results

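The Hippo core kinase cassette is described here as 10 genes: the Mst kinases Stk3 and Stk4, their adaptor Sav1, the Lats kinases Lats1 and Lats2, the Lats adaptors Mob1a and Mob1b, and the scaffolds Nf2, Wwc1 and Wwc2. The members were chosen by function, with earlier results of these data known, and matched by gene symbol. All 10 were found among the 48709 genes that each table lists. RNA was sequenced from supporting cells of the utricle, a balance organ of the inner ear, in 10 libraries. Utricles came from mice at P21 whose supporting cells carry the Lfng-EGFP reporter, and after culture the fluorescent cells were purified by flow cytometry. TRULI, an inhibitor of the Lats kinases, was given at 10 μM in 0.1% DMSO for 5 days, and its controls received 0.1% DMSO alone. Other explants had 5 days of TRULI or DMSO and then 5 days of withdrawal, so they were collected at day 10. By the sample labels there were 3 libraries of DMSO and 3 of TRULI at 5 days, and 2 of DMSO and 2 of TRULI after withdrawal. The sources used here do not say which animals or cultures each library came from, so the p-values measure the spread between these libraries.

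For 4 libraries the condition in the label differed from the condition in the name of the deposited table. Of the 3 libraries that the labels give as TRULI at 5 days, the first and second carry file names of DMSO replicates 1 and 2 at 10 days, and the third carries that of TRULI replicate 1 at 5 days. Both libraries with the label DMSO at 10 days carry file names of TRULI at 5 days, replicates 2 and 3. Ccn2, a widely used reporter of Yap activity, went against the labels: it stood at 2.38 and 7.70 CPM (counts scaled to the protein-coding total of each library with TMM factors from edgeR) in the first and second libraries labelled TRULI at 5 days, at 848 CPM in the third, and at 576 and 569 CPM in those labelled DMSO at 10 days. The 3 DMSO libraries at 5 days held 10.4 to 18.2 CPM of Ccn2. Ankrd1, another Yap target, was at most 3.52 CPM in every library and checked neither grouping. Each comparison is therefore given for the labelled groups and for the groups by deposited name.

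The tables summed to between 2463872 and 6255149 expected counts, and 3 counts of a library came to 0.550 to 1.397 CPM. All 10 supporting-cell markers, Sox2 and Lfng among them, had more than 3 counts in every library. Their summed level was 4540 to 8300 CPM in the 6 libraries deposited as day 5 and 3540 to 4220 CPM in the 4 deposited as day 10. The mitochondrial ribosomal RNA mt-Rnr2 took 13.0% to 26.4% of the counts in the former and 1.45% to 2.53% in the latter, and Lfng itself lay at 343 to 656 CPM and at 25.2 to 118 CPM. Summed hair-cell markers overlapped between these sets, at 373 to 1290 and 407 to 1420 CPM. Of the 7 macrophage, 4 melanocyte and 4 endothelial markers, at most 2, 1 and 1 had more than 3 counts in a library, and the lists summed to at most 21.4, 16.7 and 3.48 CPM, and the stromal and glial lists to at most 114 and 151 CPM. The part of these differences in the results below was not tested. In bulk libraries, fewer cells of a type and less RNA per cell cannot be told apart.

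Hippo signaling is a kinase cascade that limits growth. Mst kinases, held by Sav1, activate the Lats kinases, which bind Mob1 proteins, and active Lats phosphorylates the coactivators Yap and Taz so that they stay out of the nucleus. Nf2 and the Wwc proteins bring Lats to the plasma membrane, where it is activated. Free of Lats, Yap and Taz bind Tead factors on DNA, and Lats2 is known from other cells as a Yap target that closes a negative feedback loop.

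Promoter sequences are shown for the members whose annotated start region holds the core letters bound by Tead factors, GGAATG or CATTCC on the other strand, because Lats2 is a known Yap target. RefSeq start windows of 300 bases (250 before and 50 after the start, GRCm38.p6) were given for 9 of the 10 members, Stk3 being the exception. Of the 32851 windows of all genes, 14.7% held at least 1 match. The 9 members had 11 windows, as Lats2 and Nf2 had more than 1 each. A match was held by 4 members: Wwc2, Sav1, Mob1a and Lats2, the last in only 1 of its windows. In Lats2 the match began at base 5 after the start, and in Sav1 and Mob1a it began 106 and 209 bases before it. The 30 bases around each of these matches, with the match in capitals, were as follows.
Lats2 (chr14:57746102-57746131, minus strand): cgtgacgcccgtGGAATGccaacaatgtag
Sav1 (chr12:69987091-69987120, minus strand): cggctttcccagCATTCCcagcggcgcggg
Mob1a (chr6:83325818-83325847, plus strand): tggccagaatagCATTCCtttaggagaaga

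Wwc2 held 3 matches in the 250 bases before its start, at 203, 94 and 79 bases before it, as did 30 of all windows (0.0913%).
Wwc2 (chr8:47990545-47990794, minus strand): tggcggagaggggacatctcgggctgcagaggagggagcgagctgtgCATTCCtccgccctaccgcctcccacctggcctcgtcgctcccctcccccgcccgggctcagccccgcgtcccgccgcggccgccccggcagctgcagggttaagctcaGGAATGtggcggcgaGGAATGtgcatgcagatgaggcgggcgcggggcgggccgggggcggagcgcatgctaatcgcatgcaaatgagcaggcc
Lats1, Stk4, Mob1b, Nf2 and Wwc1 had no match in these windows. Genes can start elsewhere: some windows lie inside the outermost start of the gene in GENCODE M21. The distance was 12265 bases for the Lats2 window with the match, 3816 bases for Stk4 and 380 bases for Wwc2. A match describes letters in a window and shows no binding.

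All 10 members were expressed in the supporting cells and passed the filter on low counts in every comparison. Levels were compared between genes as FPKM (counts scaled to the effective length of the gene and to the protein-coding total of the library, with no TMM factor). Wwc1, Mob1a and Mob1b stood at the top, with means over the 10 libraries of 47.7 ± 6.06, 44.1 ± 13.6 and 43.3 ± 17.4 FPKM (SD, n = 10). Wwc1, a membrane scaffold, was also the steadiest member, with its highest library only 1.45 times its lowest. Mob1b lay above Lats1, the next in the order, in all 10 libraries.

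Lats1 (19.8 ± 9.68 FPKM), Stk3 (16.4 ± 5.04), Stk4 (14.1 ± 12.8), Wwc2 (12.3 ± 5.01) and Sav1 (11.8 ± 7.62) followed, and their neighbours overlapped: Lats1 exceeded Stk3 in 5 of 10 libraries and Stk4 exceeded Wwc2 in 4. Lats2 (7.36 ± 4.90 FPKM) and Nf2 (5.94 ± 3.98) were lowest. Nf2, which encodes the scaffold merlin, ranged from 0.301 to 12.6 FPKM, with 4 counts in its lowest library. Lats1 and Stk3 were thus the main paralogs of their pairs in the DMSO libraries at 5 days, with 16.9 ± 2.27 FPKM of Lats1 against 3.09 ± 1.25 of Lats2, and 19.0 ± 1.86 of Stk3 against 10.7 ± 2.34 of Stk4 (SD, n = 3).

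**Figure D1:**
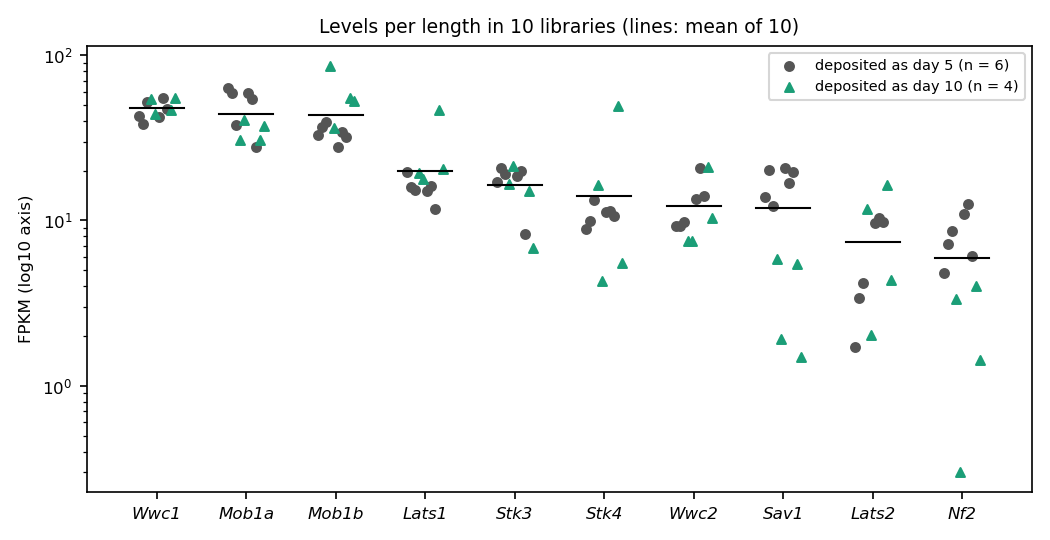
FPKM of each member in 10 libraries on a log10 axis, ordered by mean level (lines). Circles are the 6 libraries deposited as day 5 and triangles the 4 deposited as day 10; Wwc1 spans 38.2 to 55.2 FPKM, whereas Sav1 triangles all lie below its circles.

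The first question was whether blocking Lats activity for 5 days changed the transcripts of the cassette itself. By deposited name, Lats2 rose 2.76-fold with TRULI and was the only member called. Lats2 stood at 7.92, 15.4 and 18.2 CPM in the DMSO libraries (17, 40 and 62 counts). In the libraries named TRULI it stood at 39.2, 37.8 and 39.2 CPM (125, 129 and 148 counts). Every library named TRULI lay above every DMSO library, and the TRULI libraries were closer to one another than the controls were. The share of all genes without overlap was not counted. The means were 38.7 ± 0.795 and 13.8 ± 5.30 CPM (SD, n = 3 each), with a log2 fold change of 1.46 ± 0.33 (SE, adjusted p = 0.0344 by the quasi-likelihood test of edgeR, adjusted by Benjamini-Hochberg over all genes tested). Of all 10952 genes tested, 3.56% were called. DESeq2 called the same member (adjusted p = 0.00291) beside 6.45% of all genes, but the call was lost when any 1 of the 6 libraries was left out (adjusted p 0.056 to 0.126) and when all 10 libraries were fitted together (adjusted p = 0.314).

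By label, the same comparison called none of the 10 members, and 0.00939% of all genes. DESeq2 also called none, and Lats2 alone had an unadjusted p under 0.05. The libraries labelled TRULI held 63.4, 12.8 and 39.2 CPM of Lats2 (38.5 ± 25.3, SD, n = 3), so the second of them fell within the DMSO range. The log2 fold change was 1.48 ± 0.60 (SE, adjusted p = 0.346 by edgeR), close to that by deposited name, with a wider error. The library labelled and named TRULI at 5 days, with the 3 DMSO libraries, gave 1.46 (adjusted p = 0.185 by edgeR); here the lone TRULI library was assumed to vary as the others do.

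By deposited name Lats1 lay on the other side of its controls in CPM. It stood at 127, 104 and 98.4 CPM with DMSO and, under the name TRULI, at 92.1, 94.7 and 77.7 CPM. On the CPM scale the named groups did not overlap, with TRULI the lower, but the share of all genes without overlap was not counted. As FPKM, which uses no TMM factor, the named groups overlapped, at 15.4 to 19.5 FPKM with DMSO and 11.8 to 16.0 FPKM under the name TRULI. The log2 fold change of -0.32 ± 0.21 (SE) was not called (adjusted p = 0.499 by edgeR). By label it was 0.28 ± 0.34 (SE, adjusted p = 0.7 by edgeR), with libraries at 149, 159 and 92.1 CPM on either side of the controls.

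Wwc2, a scaffold of the Kibra family that activates Lats, was the other member higher in every library named TRULI. It stood at 63.3, 69.7 and 72.6 CPM with DMSO and, under the name TRULI, at 91.8, 127 and 103 CPM. The groups did not overlap, and the log2 fold change was 0.64 ± 0.22 (SE, adjusted p = 0.153 by edgeR). The share of all genes without overlap was not counted, and 16.7% of all genes had an unadjusted p under 0.05 by edgeR. With the replicate numbers of the deposited names as a block, Wwc2 passed at a log2 fold change of 0.63 (adjusted p = 0.0469 by edgeR), and Lats2 remained called at 1.51 (adjusted p = 0.00596 by edgeR). In that blocked fit 1193 genes (10.9%) were called in all. By label, Wwc2 held 65.3, 79.5 and 91.8 CPM with TRULI, which overlapped the controls (log2 fold change 0.21 ± 0.31, SE).

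The other members were not called at 5 days in either grouping. By deposited name, 5 of the 10 members had a positive and 5 a negative log2 fold change, with a median of 0.03 beside 0.01 over all genes tested and a range of -0.42 to 1.46. Mst kinase Stk4 was the closest to no difference, with 40.2 ± 10.8 CPM in DMSO and 39.9 ± 1.65 CPM in the libraries named TRULI. Stk3, the other Mst kinase, held 41.9, 49.3 and 42.7 CPM with DMSO and 40.1, 42.2 and 18.3 CPM in the libraries named TRULI, where a single library was low. Mob1a, a Lats adaptor, ranged from 103 to 234 CPM over all 10 libraries and was called in none of the comparisons reported here. By label the range was -0.66 to 1.48 with a median of 0.19, beside 0.04 over all genes tested.

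**Figure D2:**
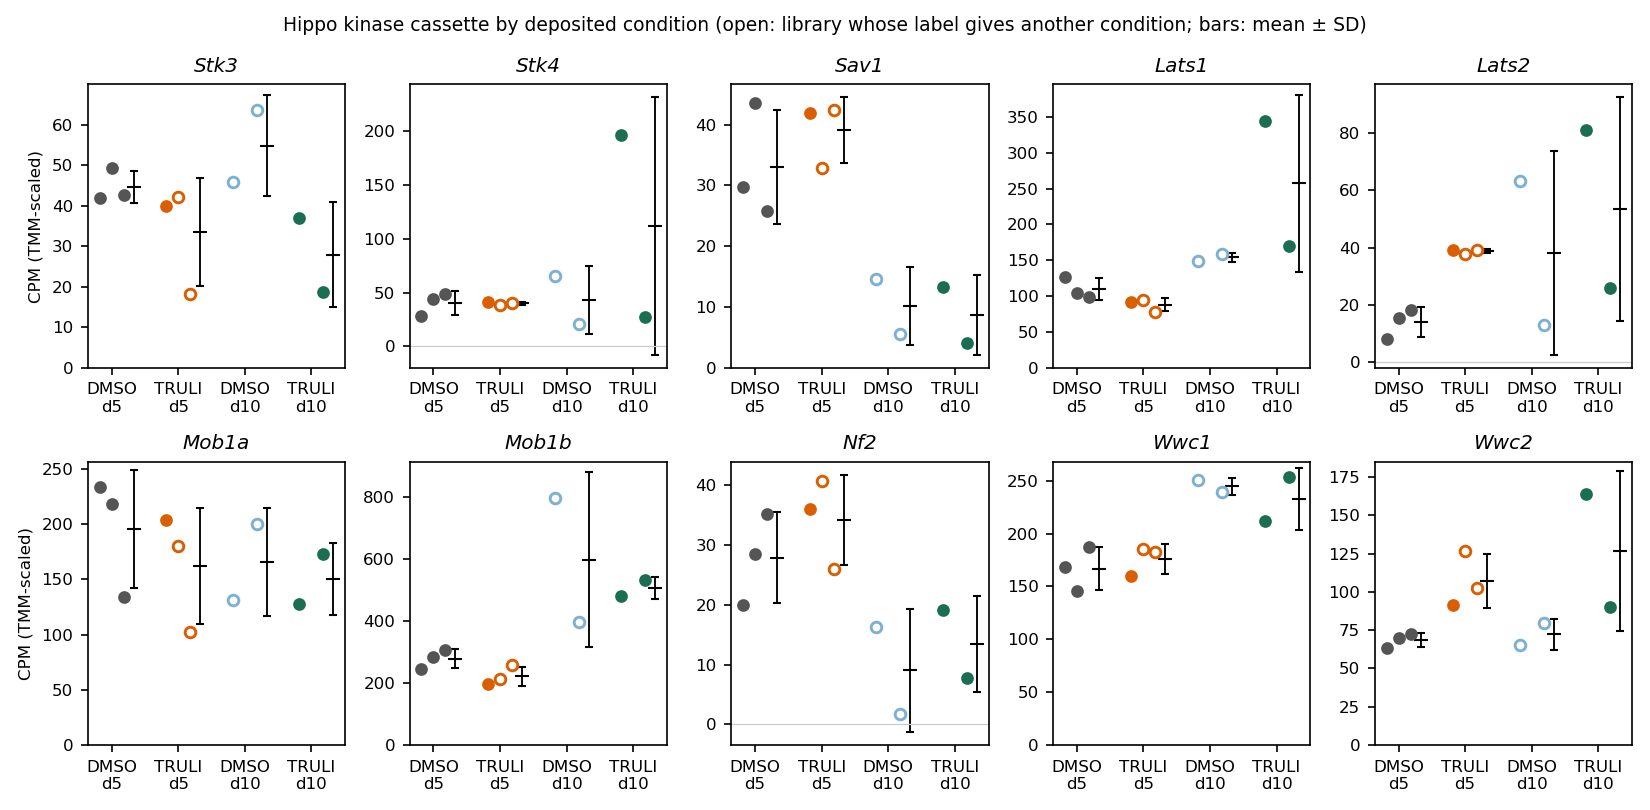
CPM of each member by deposited condition. Filled points are libraries whose label and name agree, open points those whose label gives another condition, and bars are the mean ± SD. Lats2 shows the tight group of 3 TRULI libraries at 37.8 to 39.2 CPM above the controls, and Sav1, Lats1, Mob1b and Wwc1 separate the libraries deposited as day 10 from those deposited as day 5.

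The balance between paralogs was compared next, since members of a pair can stand in for each other. The ratio of Lats2 to Lats1, per length, was 0.0876, 0.214 and 0.27 in the DMSO libraries at 5 days. It was 0.645, 0.642 and 0.837 in the libraries named TRULI at 5 days, so the groups did not overlap and Lats2 came close to the level of Lats1. The mean log2 ratio was higher by 2.03 (4.09-fold), from -2.54 ± 0.86 to -0.51 ± 0.22 (SD, n = 3 each). The exact two-sided permutation test gave p = 0.1, the smallest that 3 against 3 allows, and 0.2 after Benjamini-Hochberg adjustment over the 4 pairs. By label the TRULI libraries had ratios of 0.6, 0.114 and 0.645, which overlapped the controls (difference 1.04, exact permutation p = 0.3, n = 3 each).

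The ratio of Wwc1 to Wwc2 was lower in the libraries named TRULI. It was 4.67, 4.14 and 5.29 with DMSO and 3.16, 2.66 and 3.37 in the libraries named TRULI at 5 days, again with no overlap. The log2 difference was -0.62 (exact two-sided permutation p = 0.1, adjusted 0.2, n = 3 each). By label it was 0.13, and the groups overlapped. The pairs Stk3 to Stk4 and Mob1a to Mob1b overlapped between TRULI and DMSO at 5 days in both groupings, with exact permutation p from 0.4 to 0.9 (n = 3 each).

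After withdrawal the smallest possible exact p with 2 libraries against 2 was 0.333. By deposited name the Lats2 to Lats1 ratio was 0.354 and 0.214 after TRULI against 0.6 and 0.114 after DMSO, and the groups overlapped. By label the DMSO libraries at 10 days had ratios of 0.642 and 0.837, both above those after TRULI. The longest run of bases shared exactly by transcripts of a pair was 18 to 23 bases in the 4 pairs.

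**Figure D3:**
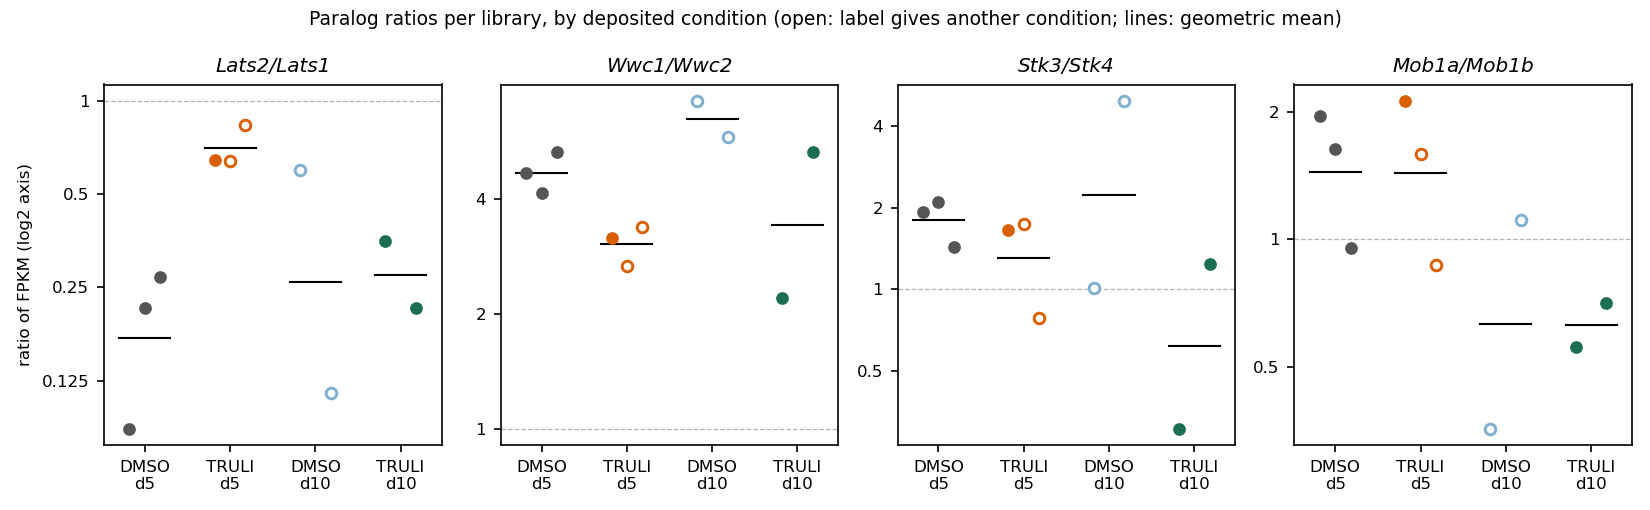
Ratio of FPKM within each paralog pair, per library and by deposited condition, on a log2 axis. Lines are geometric means, open points are libraries whose label gives another condition, and the dashed line marks equal levels. In the libraries deposited as TRULI at 5 days, Lats2/Lats1 lies at 0.642 to 0.837 against 0.0876 to 0.27 with DMSO, and Wwc1/Wwc2 at 2.66 to 3.37 against 4.14 to 5.29.

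The second question was whether the cassette differed from its controls once TRULI had been withdrawn. By deposited name no member was called, none had an unadjusted p under 0.05, and DESeq2 called none; 0% of all 10845 genes tested were called, with 516 at an unadjusted p under 0.05. Lats2 stood at 81.1 and 25.7 CPM after TRULI and at 63.4 and 12.8 CPM in the libraries named DMSO. Both groups spanned a wide range and they overlapped. Stk4 was at 196 CPM in the first TRULI library and 27.1 CPM in the second, against 65.6 and 20.9 CPM in the libraries named DMSO.

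By label edgeR also called no member after withdrawal (2.29% of all genes), although 3 had an unadjusted p under 0.05 and DESeq2 called those 3: Sav1, Lats1 and Mob1b. DESeq2 called 12.4% of all genes there, and 25.1% had an unadjusted p under 0.05 by edgeR. Sav1, the adaptor that holds Mst kinases, was at 13.3 and 4.08 CPM after TRULI and at 32.8 and 42.4 CPM in the libraries labelled DMSO (log2 fold change -2.11 ± 0.67, SE, adjusted p = 0.117 by edgeR, 0.0376 by DESeq2). Lats1 was at 344 and 170 CPM against 94.7 and 77.7 CPM (1.57 ± 0.43, SE, adjusted p = 0.0852 by edgeR, 0.00762 by DESeq2). Mob1b was at 481 and 531 CPM against 212 and 257 CPM (1.10 ± 0.31, SE, adjusted p = 0.0927 by edgeR, 0.026 by DESeq2). None of the 3 overlapped between the labelled groups, but the share of all genes without overlap was not counted. The controls of this contrast are the libraries deposited as TRULI at 5 days. Without TRULI replicate 1 edgeR called Sav1, Mob1b and Nf2, beside 25.4% of all genes, and without TRULI replicate 2 it called Stk4 and Lats1, beside 17.3% of all genes.

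Libraries after withdrawal were next set against those with TRULI present. By deposited name 3 members were called beside 14.8% of all genes: Lats1 rose 2.96-fold (log2 fold change 1.57 ± 0.34, SE, adjusted p = 0.0244 by edgeR), Mob1b rose 2.31-fold (1.21 ± 0.27, SE, adjusted p = 0.0245 by edgeR), and Sav1 fell by 2.13 on the log2 scale (± 0.56, SE, adjusted p = 0.0391 by edgeR). Stk4 had a log2 fold change of 1.51 ± 0.65 (SE, adjusted p = 0.14 by edgeR), which changed sign without TRULI replicate 1 after withdrawal. Nf2 had -1.33 ± 0.51 (SE, adjusted p = 0.105 by edgeR). The number of members called fell to 0 without the library named TRULI replicate 1 or 2 at 5 days and to 1, Mob1b, without replicate 3. Among the libraries after withdrawal, the Lats1 call was lost without TRULI replicate 1 and the Sav1 call without TRULI replicate 2. By label no member was called, none had an unadjusted p under 0.05, and DESeq2 called none, with 0% of all 11473 genes called and 350 at an unadjusted p under 0.05.

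The DMSO libraries at day 10 were also compared with those at day 5. By deposited name, Mob1b was called (log2 fold change 1.11 ± 0.32, SE, adjusted p = 0.0416 by edgeR) beside 20.2% of all genes. Sav1 missed the threshold at -1.65 ± 0.52 (SE, adjusted p = 0.0532 by edgeR), and DESeq2, with 26.5% of all genes, called it. Lats2 had 1.48 ± 0.63 (SE, adjusted p = 0.125 by edgeR), with libraries at 63.4 and 12.8 CPM that lay above and within the range at 5 days. The Mob1b call was lost when any of the DMSO replicates at 5 days or the DMSO replicate 1 at 10 days was left out. By label no member was called (2.73% of all genes). An unadjusted p under 0.05 was held by 2, Lats2 (1.48 ± 0.37, SE, adjusted p = 0.0641 by edgeR) and Wwc2 (0.76 ± 0.25, SE, adjusted p = 0.15 by edgeR). DESeq2 called Lats2 beside 4.71% of all genes. Both libraries labelled DMSO at 10 days carry file names of TRULI at 5 days, so by file name this contrast sets TRULI against DMSO at 5 days.

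Averaged over TRULI and DMSO and grouped by deposited name, day 10 differed from day 5 for 5 members, with 38.1% of all genes called. Lats1, Mob1b and Wwc1 rose, and Sav1 and Nf2 fell. None of the 5 overlapped between days on the CPM scale, but the share of all genes without overlap was not counted. The count of members called should be read beside the share of all genes called. By label 0 of 10 members and 0.00843% of all genes were called, with 1 member (Wwc2, log2 fold change 0.72) at an unadjusted p under 0.05 and none called by DESeq2.

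Sav1 was at 25.8 to 43.5 CPM in the 6 libraries deposited as day 5 (median 37.4) and at 4.08 to 14.7 CPM in the 4 deposited as day 10 (log2 fold change -1.91 ± 0.40, SE, adjusted p = 0.00297 by edgeR). Per length it was also separated, at 12.3 to 20.8 against 1.49 to 5.83 FPKM. Mob1b was at 197 to 306 CPM (median 252) and at 398 to 797 CPM (1.14 ± 0.21, SE, adjusted p = 0.00132 by edgeR), but its FPKM ranges, 27.7 to 39.6 and 36.4 to 86.1, overlapped. Lats1 was at 77.7 to 127 CPM (median 96.5) and at 149 to 344 CPM (1.01 ± 0.22, SE, adjusted p = 0.00343 by edgeR). On the FPKM scale Lats1 lay at 11.8 to 19.5 and at 17.9 to 46.3, so the ranges overlapped there. The TMM factors, which FPKM does not use, were 1.06 to 1.18 in the libraries deposited as day 5 and 0.789 to 0.940 in those deposited as day 10.

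Nf2 was at 20.02 to 40.7 CPM (median 31.8) and at 1.71 to 19.1 CPM, so its groups were separated by little (-1.45 ± 0.48, SE, adjusted p = 0.031 by edgeR). Wwc1 was at 146 to 187 CPM (median 175) and at 212 to 253 CPM (0.48 ± 0.17, SE, adjusted p = 0.0445 by edgeR). Its FPKM means were 46.3 ± 6.41 (SD, n = 6) and 49.8 ± 5.62 (SD, n = 4), which is closer than the CPM values. The FPKM ranges of Wwc1, 38.2 to 55.2 and 43.8 to 54.9, overlapped. Sav1, Lats1 and Mob1b were called in all 16 alternative fits. Nf2 was called in 4 and Wwc1 in 1 of the 10 fits that left out a library. The supporting-cell markers and mt-Rnr2 given above differ between the same libraries, and their part in these differences was not tested.

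**Figure D4:**
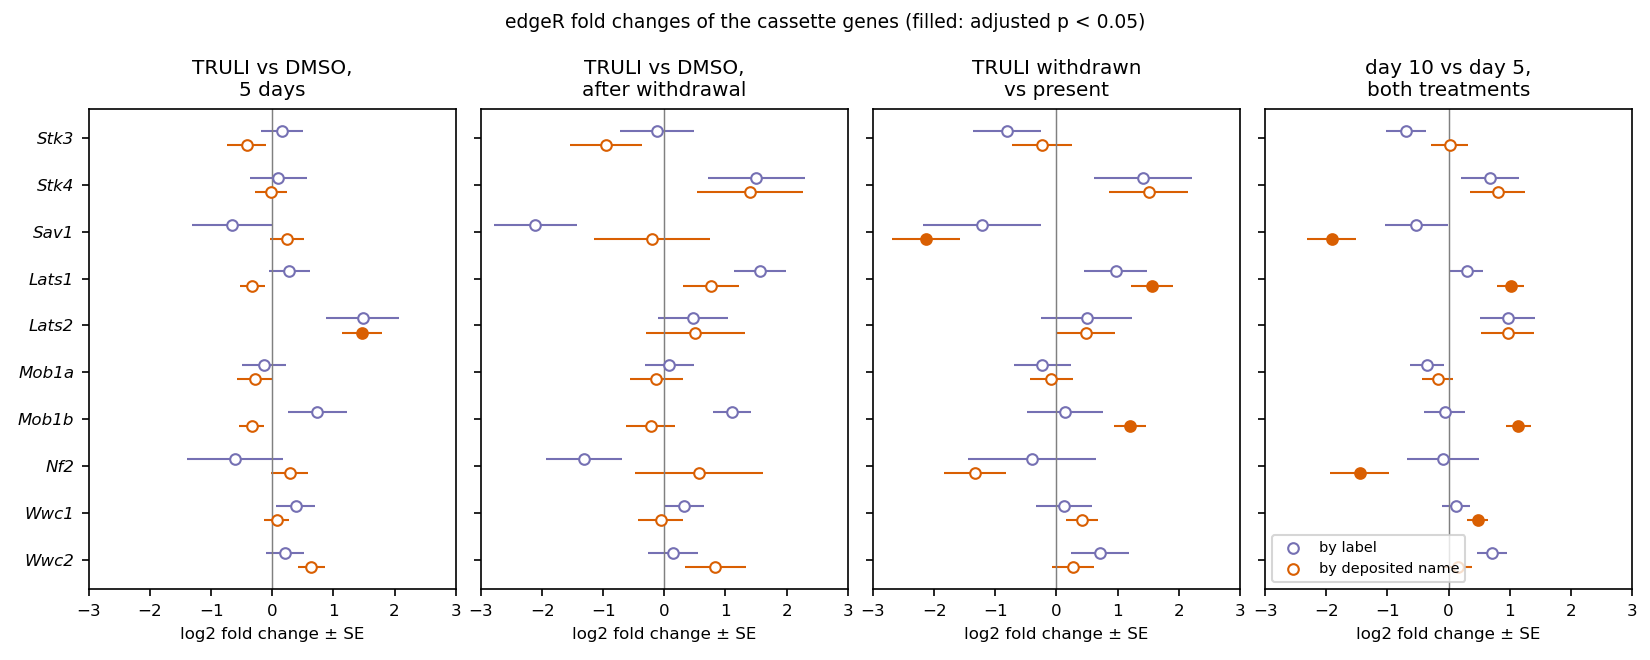
Log2 fold changes ± SE of the members in 4 comparisons, by label and by deposited name. Filled points have an adjusted p under 0.05 (edgeR). By deposited name Lats2 is filled at 5 days, 3 members are filled for TRULI withdrawn against present and 5 for day 10 against day 5; by label no point is filled.

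A test of whether the effect of TRULI differed between withdrawal and 5 days called no member in either grouping, and DESeq2 called none; 0% of 11861 genes were called by label and by deposited name. Lats1 alone had an unadjusted p under 0.05 in both, with a difference on the log2 scale of 1.06 ± 0.44 by deposited name (SE, adjusted p = 0.49 by edgeR) and 1.30 ± 0.55 by label (SE, adjusted p = 0.714 by edgeR). Of all genes, 1120 by deposited name and 810 by label had an unadjusted p under 0.05 in this test.

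The remainder of the pathway was read from 4 lists with 58 genes: Yap, Taz and the Tead factors with their cofactor Vgll4, upstream regulators, the Stripak phosphatase complex that opposes the Mst kinases, and the Ndr kinases Stk38 and Stk38l. With TRULI at 5 days by deposited name, 53 were tested, 3 rose and 3 fell (11.3%, beside 3.56% of all genes), and all 6 were upstream regulators. The lists were chosen with earlier results of these data known, so these shares cannot test whether the lists stand out. Of the 28 upstream regulators tested the median log2 fold change was 0.27 beside 0.01 over all genes tested. Neither Yap1 nor any other of the 7 effectors was called (median 0.08), and neither was any Stripak subunit (16 tested, median -0.23) or Ndr kinase (2 tested, median -0.33).

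Ajuba, a LIM protein that binds and restrains Lats, showed the largest change among them. It stood at 11.2, 11.9 and 14.6 CPM with DMSO and, under the name TRULI at 5 days, at 170, 101 and 86.4 CPM. Its log2 fold change was 3.22 ± 0.31 (SE, adjusted p = 0.000915 by edgeR). In the libraries deposited as day 10 it lay between 5.52 and 11.5 CPM, below or within the range of the controls at day 5.

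Amotl2, an angiomotin that binds Yap and activates Lats, rose as well (log2 fold change 1.82 ± 0.28, SE, adjusted p = 0.00644 by edgeR). Amot, another angiomotin, went the other way (-1.02 ± 0.23, SE, adjusted p = 0.0374 by edgeR). Ptpn14, a phosphatase that holds Yap in the cytoplasm, rose by 1.33 ± 0.29 (SE, adjusted p = 0.0312 by edgeR). Rassf6, a partner of the Mst kinases, fell by 2.32 on the log2 scale (± 0.42, SE, adjusted p = 0.0143 by edgeR). Limd1, which like Ajuba is a LIM protein that inhibits Lats, fell by 1.25 on the log2 scale (± 0.24, SE, adjusted p = 0.0169 by edgeR). Ajuba and Limd1 thus moved in opposite directions. By label none of the 53 was called at 5 days, where the median of the upstream list was 0.41 beside 0.04 over all genes tested.

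After withdrawal none of the 54 tested genes of these lists was called by deposited name, and by label 1 of 55, Ajuba, was called (log2 fold change -3.80 ± 0.47, SE, adjusted p = 0.0287 by edgeR). For TRULI withdrawn against present by deposited name, 6 of 55 rose and 2 fell, a share of 14.5% that is near the 14.8% of all genes called. Ajuba fell by 4.10 on the log2 scale (adjusted p = 0.0072 by edgeR), and Slmap, the Stripak subunit that docks on Mst kinases, rose by 1.81 (adjusted p = 0.0147 by edgeR). Wwtr1, which encodes Taz, rose by 1.56 (adjusted p = 0.0177 by edgeR), with Taok3, a kinase that activates Mst kinases, at 1.56 and the polarity gene Crb3 at 2.30. By label none of 54 was called.

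In the DMSO libraries by deposited name, 4 of 53 were higher and 4 lower at day 10, which is 15.1% beside 20.2% of all genes. They were led by Slmap at a log2 fold change of 1.79 (adjusted p = 0.00804 by edgeR), Crb3 at 3.32, Wwtr1 at 1.55, the LIM gene Wtip at 2.09 and Stk38 at -1.48. By label 2 of 54 were higher and 2 lower: Ajuba (2.90), Amotl2 (1.60), Rassf6 (-2.07) and Limd1 (-1.31). The libraries labelled DMSO at 10 days carry file names of TRULI at 5 days, and the same genes were called with TRULI at 5 days by deposited name. Averaged over treatments by deposited name, 11 of 54 were higher and 7 lower at day 10, which is 33.3% beside 38.1% of all genes. Slmap was the most sharply separated, at 138 to 212 CPM in the 6 libraries deposited as day 5 and 464 to 801 CPM in the 4 deposited as day 10. Wwtr1 lay at 88.1 to 141 and at 228 to 396 CPM. By label, and in the test of the difference of effects, none of the 54 was called.

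Genes whose pattern was most like that of the 4 kinases were found by Pearson's r of log2(CPM + 1) over the 10 libraries, among 8682 other genes with a mean of at least 10 CPM. For Lats1 they were Ccdc6, Usp32 and Stard7 (r = 0.958, 0.957 and 0.956). For Lats2 they were Uevld, Mmp2 and Dusp5 (0.897, 0.895 and 0.872). Slc23a2, Zfp952 and Dync1li1 were closest to Stk3 (0.944, 0.926 and 0.919), and Sos2, Ebf1 and Fam135a to Stk4 (0.971, 0.948 and 0.931). No cassette member was among them, and no Lats1 neighbour was also a Lats2 neighbour. The libraries fall into the sets described above, which all these values share, so they are descriptions only.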

How the data were processed

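Expected counts for 48709 genes in each of 10 libraries were used as deposited. Per the paper, the authors used STAR and the assembly GRCm38/mm10 for mapping, and the program behind the expected counts is not given in the sources used here. The labels name poly(A) enrichment and an Illumina kit, the paper a QIAseq kit. The deposited effective length of each gene served only for FPKM, computed here from the protein-coding total. Symbols and biotypes came from GENCODE M21 and matched 48349 genes, 21695 of them protein-coding.

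After rounding, expected counts were filtered with filterByExpr, scaled by TMM and fitted with the quasi-likelihood method of edgeR 4.0.16 under R 4.3.3, in protein-coding genes of the groups compared; an adjusted p under 0.05 (Benjamini-Hochberg over all tested genes) was a call. DESeq2 1.42.0 was an alternative, as were its size factors, genes of every biotype, a joint fit of all 10 libraries, dropping the filter, no mitochondrially encoded genes, a replicate block, a call that also needed a log2 fold change beyond 1, and leaving out each library. The comparison of DMSO libraries between days, that of day 10 with day 5 averaged over treatments, and the fits without the 4 libraries whose name and label differ were added after seeing the data. Scripts were tested on simulated counts. The 10 members and all lists were chosen with earlier results of these data known. The genes named were all members, Ccn2 and Ankrd1, and the 3 genes most like each kinase. Of the other lists, at most the 5 called genes with the lowest p in a comparison were named. Amot was added at 5 days because it went against Amotl2. Floors of 3 counts cover counting error only. No 2 libraries were duplicates (chi-square per degree of freedom at least 12.8).

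Replicate numbers were treated as pairs only at 5 days by deposited name, where the deviations of same-numbered libraries from their group means correlated at 0.485, 0.256 and 0.383; the sources do not say what a number stands for. Frmd1, an upstream regulator, had no row under that symbol.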

Additional observations from a re-analysis of the deposited data

Results flagged for a closer look

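On the CPM scale Lats1 was the member in which the groups by deposited name were separated in opposite directions at the 2 times. As FPKM, which uses no TMM factor, its groups at 5 days overlapped (15.4 to 19.5 FPKM with DMSO, 11.8 to 16.0 FPKM under the name TRULI). The share of all genes separated in this way was not counted. In CPM, all 3 TRULI libraries at 5 days (77.7 to 94.7) lay below all 3 DMSO libraries (98.4 to 127). After withdrawal both TRULI libraries (344 and 170 CPM) lay above both DMSO libraries (149 and 159 CPM). The difference of the effects was 1.06 on the log2 scale (edgeR, unadjusted p = 0.0325, adjusted p = 0.49), so it did not pass the correction over all genes, of which 1120 of 11861 had an unadjusted p under 0.05. Its adjusted p ranged from 0.15 to 0.745 over the alternatives.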

How the results depend on the processing

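Leaving out each library in turn gave 0 to 1 called members at 5 days by label and 0 by deposited name, 0 to 3 after withdrawal by label, 0 to 3 for TRULI withdrawn against present by deposited name, 0 to 2 for DMSO at 10 days against 5 by deposited name and 3 to 5 for day 10 against day 5 by deposited name. At 5 days by label the called member was Mob1b, without TRULI replicate 3, and 2193 of all 10880 genes tested were called there. That fit holds the libraries named DMSO at 10 days and DMSO at 5 days. Shares of all genes are not given for every refit, so these counts alone do not set the members apart. With each library left out, the log2 fold change of Stk4 for TRULI withdrawn against present by deposited name ranged from -0.55 to 2.32. That of Lats2 for DMSO at 10 days against 5 by deposited name ranged from -0.12 to 2.19. Grouping by deposited name in place of the label gave 1 called member at 5 days, 3 for TRULI withdrawn against present, 1 for the DMSO libraries and 5 for day 10 against day 5; it turned the log2 fold change of Lats1 at 5 days to -0.32 and that of Mob1b after withdrawal to -0.22. Without the 4 libraries whose name and label differ, 0 members were called at 5 days and for TRULI withdrawn against present by deposited name, and Lats1 at 5 days by label turned to -0.28; the other comparisons could not be fitted. After withdrawal by label DESeq2 called 3 members and no filter 2. For the DMSO libraries by label, DESeq2 and no filter each called 1, Lats2; by deposited name DESeq2 and its size factors each called 2 and no filter 3. All 10 libraries in one fit called 0 at 5 days by deposited name.

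With the replicate block, 2 members were called at 5 days by deposited name, beside 10.9% of all genes. There the deviations of same-numbered libraries correlated, as given above, but the sources do not say what a number stands for. Elsewhere libraries share only a number (2 shared numbers, or at 5 days by label correlations of -0.188, 0.064 and -0.232). The block there gave 3 called members after withdrawal by label, 1 for the DMSO libraries by label and 0 by deposited name. In the other comparisons it stayed within 1.5 times the unblocked count. For TRULI withdrawn against present by deposited name, Sav1 and Mob1b remained called with the block. Lats1 then missed the threshold (adjusted p = 0.0512 by edgeR).

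Paralog log2 differences by label changed to -0.46 (Stk3/Stk4) and -0.62 (Wwc1/Wwc2) at 5 days, and to 0.075 (Lats2/Lats1) and -0.93 (Wwc1/Wwc2) after withdrawal, when grouped by deposited name. Ratios of counts without length turned Mob1a/Mob1b by deposited name to 0.044 at 5 days and 0.031 after withdrawal. Leaving out each library gave ranges that crossed 0. By label at 5 days these were -0.48 to 0.67 (Stk3/Stk4), -1.19 to 0.091 (Mob1a/Mob1b) and -0.13 to 0.47 (Wwc1/Wwc2), and after withdrawal -1.93 to 0.087 (Stk3/Stk4) and -0.45 to 0.82 (Wwc1/Wwc2). By deposited name they were -0.31 to 0.35 (Mob1a/Mob1b) at 5 days, and -1.12 to 1.27 (Lats2/Lats1) and -0.83 to 0.81 (Mob1a/Mob1b) after withdrawal. The causes were not tested. Counts were 17 to 62 for Lats2 in the DMSO libraries at 5 days, 13 and 17 for Sav1 in its lowest libraries and 4 for Nf2 in its lowest, and such counts limit the precision of these values.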
